A study of Mus musculus with 8 samples.

Results

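The genes described here act in mitosis and in the G2 phase before it. They were listed by name, 44 in all, and each was read from the array probe set whose platform annotation gave that symbol alone; for Top2a, the 1 listed gene with several such sets, the set of highest mean over all arrays was used. There were 43 measured members among the 19937 genes with a symbol of their own on the array. No probe set was matched to Ccnb1 alone, so its level is not given and it enters only the promoter counts. The cells measured were Tregs, regulatory T cells that are defined by the transcription factor FoxP3 and restrain immune responses. FoxP3+ Tregs were sorted from Bcl6-/- mice, labelled knock-out (KO), and from wild-type (WT) mice, and both groups were stimulated with anti-CD3 and anti-CD28 for 16 h. The 4 KO-labelled and 4 WT arrays carry a number, 1 or 2, called a preparation here, and a letter, A or B, and are named KO 1A to WT 2B below. The labels give no strain, age or sex, nor which part of Bcl6 the mice lack. What a number or a letter stands for is not stated either; a p-value here therefore covers the spread between arrays, part or all of which may be technical.

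A dividing cell copies its DNA in S phase, passes through G2 and then separates its chromosomes in mitosis. Cyclins A and B switch on the kinase Cdk1, kinesin motors and microtubule proteins build the spindle, kinetochores tie chromosomes to it, and a checkpoint holds back anaphase until all are attached. Most genes of these machines are transcribed mainly in cycling cells and peak in G2 and mitosis, so their RNA is widely read as a sign of division, and resting T cells hold little of it. Activated Tregs divide, and engagement of CD3 and CD28 is a signal that brings T cells into the cycle.

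Some facts of the arrays bear on every value below. Bcl6, the targeted gene, was at 8.91 log2 in KO 1 and 8.53 in KO 2 on average, against 8.13 ± 0.25 (SD, n = 4) in WT, with every KO-labelled array above every WT array; its probe positions were not used here, so this does not check the label and the arrays are called KO-labelled. The SD of all probe set values within an array was 1.84 to 1.87 in KO 1, 1.61 to 1.65 in KO 2 and 1.56 to 1.70 in WT, so the KO 1 arrays had a wider spread of values than all others. Averaged over Eif2s3y, Kdm5d and Uty, which are Y-linked, KO-labelled arrays held 4.62 to 4.80 log2 and WT arrays 6.94 to 8.30, so this level ran with the genotype label and cannot be told apart from it. Of the markers of the sorted cells, Foxp3 was at 10.45 to 11.06 log2 in KO-labelled and 9.65 to 10.27 in WT arrays. The median level of 6 measured Treg markers was 10.68 to 11.77 in KO-labelled and 9.85 to 10.64 in WT arrays, a median difference of 0.95 log2. Each of the 6 differed more from WT in KO 1 than in KO 2. The smallest differences were those of Ikzf2, 0.68 log2 in KO 1 and 0.42 in KO 2. The largest were those of Il2ra, 2.21 and 0.77 log2. The part of this shift in the results below was not tested. The median differences of 5 B cell, 6 myeloid and 4 NK cell markers were -0.21, -0.09 and -0.10 log2. Among them Cd79b, Lyz2 and Eomes went the other way, by 0.33, 0.35 and 0.06 log2. Every KO-labelled array of Lyz2 lay above every WT array. The median differences of 5 T cell and 2 CD8 T cell markers were 0.27 and -0.12 log2, and Alas2, of erythroid cells, differed by 0.32 log2. Of the CD8 T cell markers, Cd8a differed by -0.26 log2, with -0.66 in KO 1 and 0.14 in KO 2, and Cd8b1 by 0.03 log2. Of all these markers 0 were called, against 0.120% of all genes called higher and 0.0150% lower.

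Mitosis genes were higher in the KO-labelled Tregs in both preparations, and much more so in preparation 1. Of 43 measured members, 42 had a mean above that of WT, and the median member was higher by 0.97 log2, a 1.96-fold difference, while the median over all 19937 genes was -0.06. Set against the same 4 WT arrays, the median member was 1.58 log2 higher in KO 1, or 3.0-fold, and 0.48 log2 higher in KO 2, or 1.40-fold. The exception was Smc4, lower than the WT mean in both preparations. More dividing cells and more of these RNAs per cell cannot be told apart in RNA from whole cell populations.

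None of these differences passed the test over all genes with the preparation as a random block. Adjusted by Benjamini-Hochberg over all 19937 genes, limma's test gave no call: 0 of 43 members were called higher and 0 lower at an adjusted p under 0.05, against 0.120% of all genes called higher and 0.0150% called lower. The smallest adjusted p was that of Top2a, 0.100, and the others ranged up to 0.701. Without adjustment, 38 members were higher at a p under 0.05, against 5.65% of all genes, and 0 were lower. Arrays of a preparation were treated as correlated in this test, and the SD of the 4 KO-labelled arrays, which holds the gap between KO 1 and KO 2, had a median over members of 0.63 log2, against 0.12 log2 for the 4 WT arrays.

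The arrays of the groups nevertheless seldom overlapped. In 37 of 43 members all 4 KO-labelled arrays lay above all 4 WT arrays, against 6.67% of all genes. The counts given by role below are parts of these 37, to be read beside the same share. The members whose groups overlapped were Cdc25c, Nek2, Mad2l1, Cdca3, Espl1 and Smc4. The KO 1 arrays alone lay above all WT arrays in 42 members, but so did 34.0% of all genes, in arrays of wide spread. The KO 2 arrays, whose spread was like that of WT, lay above all WT arrays in 37 members, against 9.54% of all genes. Between the KO-labelled preparations, both KO 1 arrays were above both KO 2 arrays in 42 members, against 39.0% of all genes. Array KO 1A, which had the widest spread of values, gave the highest of the 8 values in 41 members. The same share over all genes was not counted.

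**Figure D1:**
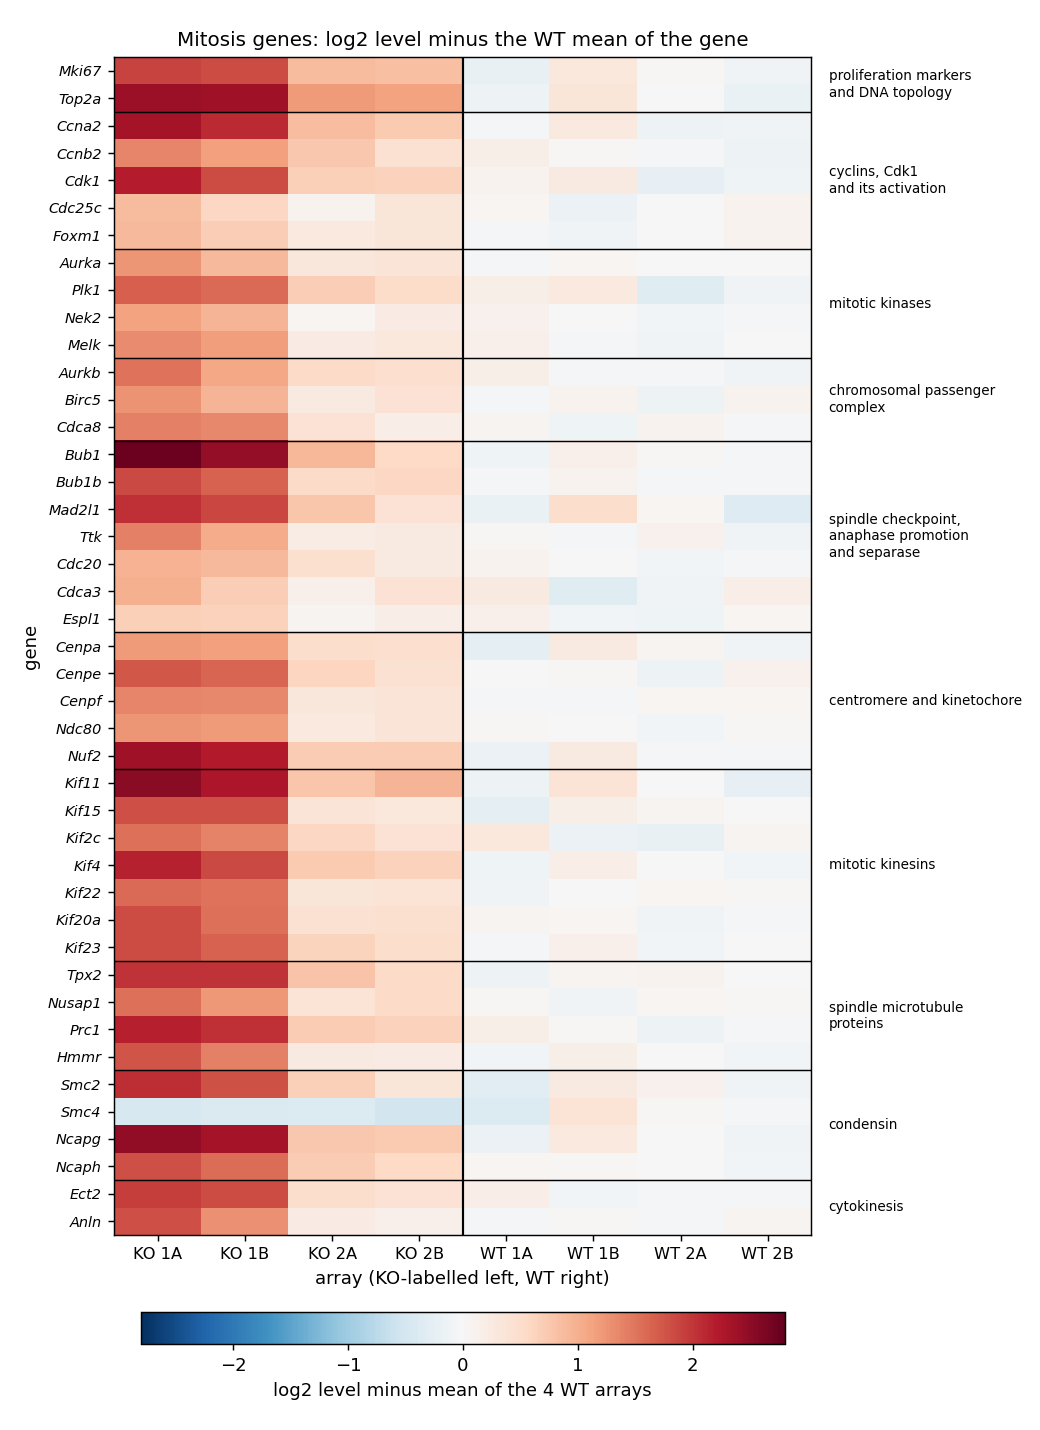
Each row is a measured mitosis gene, each column an array, and the colour is the log2 level minus the mean of the 4 WT arrays for that gene, with genes grouped by role. The KO 1 columns are the reddest, the KO 2 columns are paler but mostly above 0, and Smc4 is the only row below 0 in all 4 KO-labelled arrays.

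**Figure D2:**
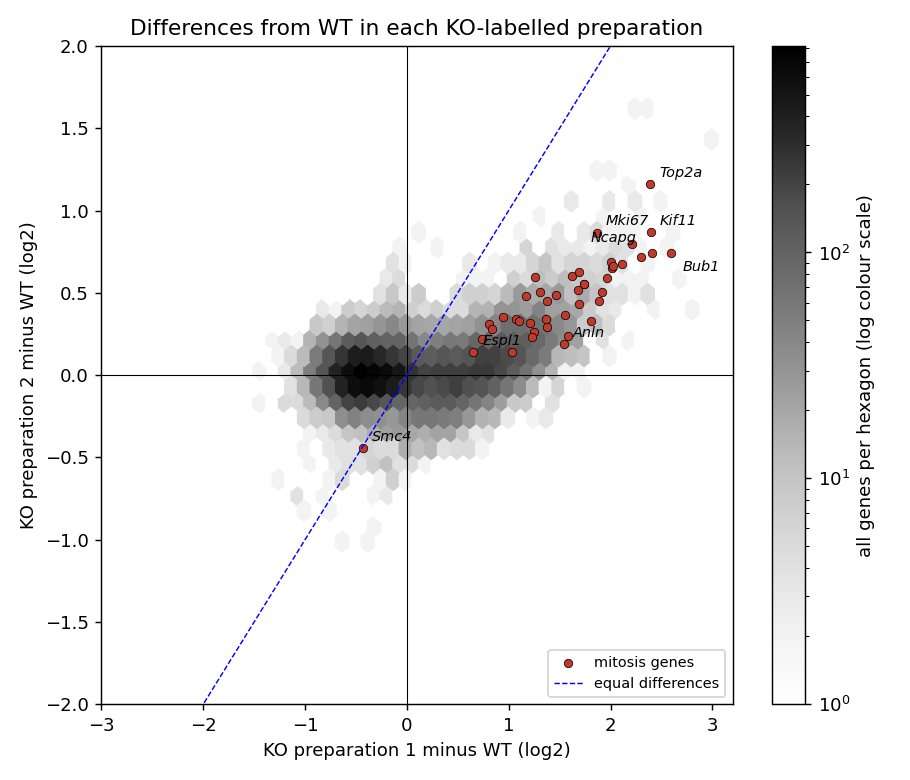
Each red point is a measured mitosis gene, placed by its difference from WT in KO 1 (horizontal axis, log2) and in KO 2 (vertical axis, log2), and grey hexagons count all genes. Both axes use the same 4 WT arrays. All points but Smc4 lie above 0 on both axes, and all lie below the dashed line of equal differences, Smc4 just so.

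Array by array, the median member stood 1.73 and 1.51 log2 above its WT mean in KO 1A and KO 1B and 0.49 and 0.41 log2 above it in KO 2A and KO 2B. In the WT arrays the same median was -0.04, 0.06, -0.02 and -0.04 log2. Over all genes that median was -0.11 and -0.13 log2 in the KO 1 arrays and 0.00 and 0.04 log2 in the KO 2 arrays. Among the 5064 genes whose WT mean lay between the members' quartiles of 6.75 and 7.55 log2, the median difference was -0.32 log2 in KO 1 and 0.03 log2 in KO 2.

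Quantile normalization, which gives all arrays the same spread, left the members' median at 0.89 log2, with 1.40 in KO 1 and 0.48 in KO 2, against -0.01 over all genes. In that table limma called 4 members higher and 0 lower at an adjusted p under 0.05, against 0.607% of all genes called higher. They were Top2a (adjusted p = 0.0133), Mki67 (adjusted p = 0.0227), Ncaph (adjusted p = 0.0468) and Ccna2 (adjusted p = 0.0481). With the KO 1 arrays left out and no block for preparations, limma called 7 members higher in KO 2 than in WT, against 0.642% of all genes. These were Bub1, Ccna2, Kif4, Mki67, Ncapg, Prc1 and Top2a. With the KO 2 arrays left out in the same way it called 42 members, against 30.1% of all genes. Both fits take arrays A and B as independent samples.

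**Figure D3:**
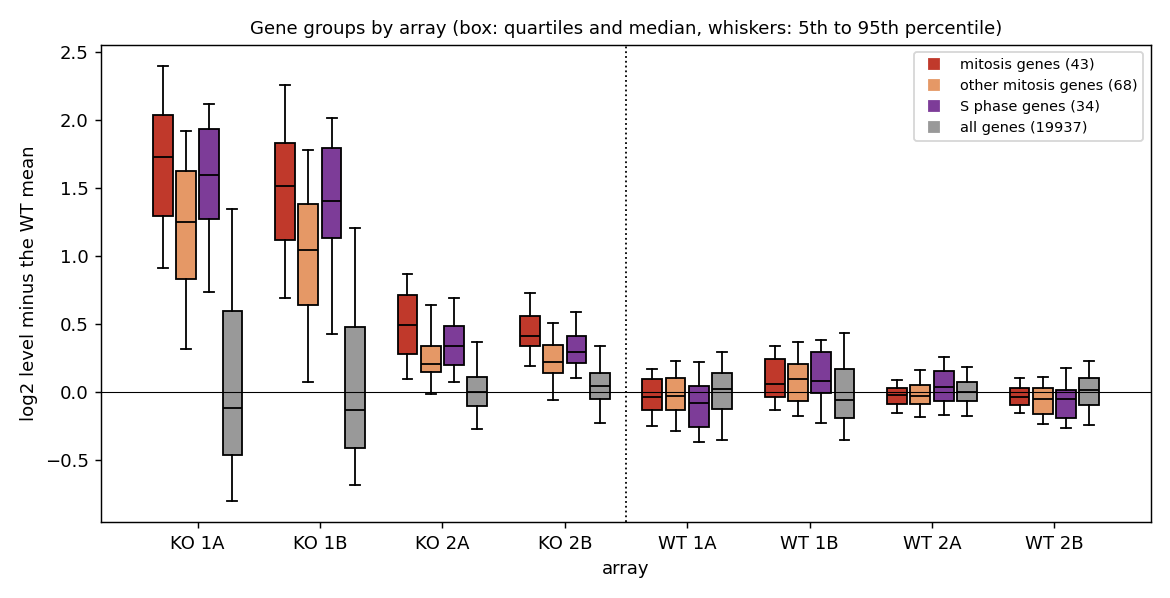
For each array, boxes give the median and quartiles of the log2 level minus the WT mean of each gene, over the mitosis genes, other mitosis genes, S phase genes and all genes, and whiskers reach the 5th and 95th percentiles. The mitosis genes have the highest median of the 4 groups in every KO-labelled array, and all boxes in the WT arrays lie close to 0.

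Promoters of G2 and mitosis genes are known to carry the cell cycle genes homology region (CHR), through which the DREAM complex represses them in resting cells and B-Myb and FoxM1 complexes activate them later, often with CCAAT boxes bound by NF-Y nearby. The promoter table, from RefSeq on mouse build GRCm38.p6, holds 250 bases before and 50 after each start site. It matched 37 of the 44 listed genes, with 39 promoters, since Prc1 and Ect2 had 2 each. Those of Ccna2, Cdc25c, Foxm1, Aurkb, Kif20a, Tpx2 and Smc4 were not used here. The CHR was searched as TTTGAA or TTCGAA and the CCAAT box as CCAAT, each on both strands; a CHR and a CCAAT match can share bases at their ends, but do not in the stretches printed. A CHR match was present in 30 of the 39 promoters, of 28 genes, against 19.2% of all 32851 promoters. A CCAAT match was present in 29 promoters, of 27 genes, against 37.4% of all, and matches to both in 26 promoters, of 24 genes, against 7.52%. The first base of a CHR match lay at a median of -17 from the start site over the 43 matches in members and at -125 over all promoters. For CCAAT the medians were -67 and -92. The 2 promoters of Prc1 overlap, as do those of Ect2, so the same matches were counted from both at shifted positions. A match is a description of the letters, and no binding was measured.

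The members whose promoters hold both motifs had a median difference of 1.13 log2, against 0.94 log2 in the 12 measured members that do not, with ranges of 0.40 to 1.77 and 0.59 to 1.51 that overlap. In KO 2 these medians were 0.53 and 0.39 log2. Split by the CHR alone, the medians were 1.02 log2 in the 28 measured members with a match and 1.01 log2 in the 8 without, or 0.49 and 0.48 log2 in KO 2. Among members whose promoters hold both motifs, those of the 5 with the largest differences are printed. Each stretch runs from 250 bases before the start site to 30 after it, 5′ to 3′ on the strand of the gene, with the CHR and CCAAT matches in capitals; ATTGG is CCAAT and TTCAAA is TTTGAA on the other strand. Prc1 is shown from the first of its 2 start sites in the table.
Top2a (chr11:99024160-99024439, minus strand): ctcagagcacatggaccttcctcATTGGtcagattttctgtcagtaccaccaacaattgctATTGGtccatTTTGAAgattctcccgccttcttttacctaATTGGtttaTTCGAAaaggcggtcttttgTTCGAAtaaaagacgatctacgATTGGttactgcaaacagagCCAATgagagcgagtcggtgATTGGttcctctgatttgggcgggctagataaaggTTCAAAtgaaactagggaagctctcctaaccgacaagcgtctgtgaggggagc
Bub1 (chr2:127831830-127832109, minus strand): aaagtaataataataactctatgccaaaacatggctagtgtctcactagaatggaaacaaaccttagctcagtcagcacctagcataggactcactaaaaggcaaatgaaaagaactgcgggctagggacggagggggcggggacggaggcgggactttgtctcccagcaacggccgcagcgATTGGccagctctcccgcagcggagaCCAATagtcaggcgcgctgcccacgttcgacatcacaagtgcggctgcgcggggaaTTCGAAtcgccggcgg
Kif11 (chr19:37376132-37376411, plus strand): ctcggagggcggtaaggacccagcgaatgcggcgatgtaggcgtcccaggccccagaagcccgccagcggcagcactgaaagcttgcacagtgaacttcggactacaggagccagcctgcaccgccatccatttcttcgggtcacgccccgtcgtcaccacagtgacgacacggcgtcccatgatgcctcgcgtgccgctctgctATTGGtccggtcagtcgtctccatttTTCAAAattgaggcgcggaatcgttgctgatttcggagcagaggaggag
Ncapg (chr5:45669675-45669954, plus strand): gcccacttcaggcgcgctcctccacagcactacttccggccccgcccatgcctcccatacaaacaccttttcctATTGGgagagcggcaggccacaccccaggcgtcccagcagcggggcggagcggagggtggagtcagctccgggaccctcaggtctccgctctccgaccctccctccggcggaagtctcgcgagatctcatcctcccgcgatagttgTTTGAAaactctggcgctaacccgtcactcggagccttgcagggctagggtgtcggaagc
Prc1 (chr7:80294226-80294505, plus strand): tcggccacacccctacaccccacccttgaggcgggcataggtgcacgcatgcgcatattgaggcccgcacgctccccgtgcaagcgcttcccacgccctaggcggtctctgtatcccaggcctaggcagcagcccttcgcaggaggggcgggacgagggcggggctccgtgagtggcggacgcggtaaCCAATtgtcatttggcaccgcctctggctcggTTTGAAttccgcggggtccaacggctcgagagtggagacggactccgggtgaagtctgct
Positions count from the start site as base 1, with the base before it as -1. Top2a holds 4 CHR matches, at -179, -140, -120 and -23, and 6 CCAAT matches, more of each than the other promoters printed. In Bub1 a single CHR lies after the start site, at 15, behind CCAAT matches at -68 and -42. Kif11, Ncapg and Prc1 hold a single match to each motif, with the CHR at -19, -30 and -30.

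**Figure D4:**
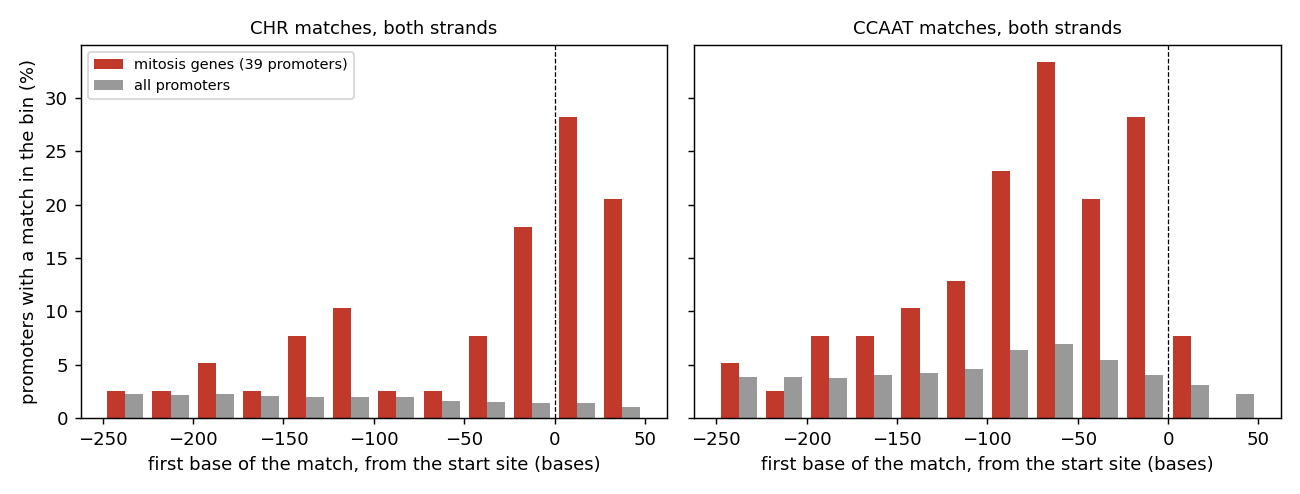
Bars give the percentage of promoters with a match that begins in each bin of 25 bases from 250 before to 50 after the start site, for the 39 promoters of mitosis genes and for all 32851 promoters. CHR matches in mitosis genes are most frequent in the bin that begins at the start site, at 28.2% against 1.43%, and CCAAT matches in the bin from -75 to -50, at 33.3% against 6.99%.

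Of the 2 genes best known as markers of dividing cells, Top2a had the highest difference of all members. It encodes topoisomerase II alpha, which untangles sister DNA molecules. The log2 level of Top2a was 10.28 and 10.27 in KO 1 and 9.07 and 9.02 in KO 2, against 7.75, 8.23, 7.87 and 7.70 in the WT arrays. Every KO-labelled array exceeded every WT array, and KO 1 stood apart from KO 2. The difference was 1.77 log2 (SE 0.36, limma adjusted p = 0.1), or 3.42-fold, with 5.24-fold in KO 1 and 2.24-fold in KO 2. Its limma adjusted p was 0.0193 without WT 1B and 0.0535 to 0.255 without any other single array. A further probe set with the Top2a symbol alone lay near the floor of the array, at 3.96 to 4.17 in the KO-labelled and 3.91 to 4.06 in the WT arrays, and differed by 0.06 log2. Mki67 had log2 levels of 10.02 and 9.95 in KO 1, 9.01 and 8.96 in KO 2, against 7.92, 8.41, 8.15 and 8.01 in WT. Mki67 encodes Ki-67, the coat protein of mitotic chromosomes used to stain dividing cells. Its difference was 1.36 log2 (SE 0.33, limma adjusted p = 0.253), or 1.86 in KO 1 and 0.87 in KO 2, and no KO-labelled array overlapped WT.

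The cyclins and Cdk1 were higher in every KO-labelled array than in any WT array. Ccna2 encodes cyclin A2, which acts in S phase and G2. Ccna2 measured 9.81 and 9.56 log2 in the KO 1 arrays and 8.34 and 8.20 log2 in the KO 2 arrays, against 7.44, 7.75, 7.33 and 7.37 log2 in the WT arrays. It differed by 1.50 log2 (SE 0.37, limma adjusted p = 0.273), or 2.21 in KO 1 and 0.80 in KO 2. Cdk1, the kinase that cyclins A and B activate, differed by 1.33 log2 (SE 0.36, limma adjusted p = 0.384), or 2.01 in KO 1 and 0.65 in KO 2. For cyclin B2, the log2 level of Ccnb2 was 9.43 and 9.22 in KO 1 and 8.83 and 8.50 in KO 2, against 8.24, 8.11, 8.01 and 7.92 in the WT arrays. Its difference was 0.93 log2 (SE 0.28, limma adjusted p = 0.465), with 1.26 log2 in KO 1 and 0.60 log2 in KO 2. Foxm1, the transcription factor that drives many of the G2 genes, was higher by 0.56 log2 (SE 0.22, limma adjusted p = 0.701) with no overlap of groups. Cdc25c had log2 levels of 6.74 and 6.43 in KO 1, 5.94 and 6.18 in KO 2, against 5.91, 5.69, 5.83 and 5.95 in WT. Cdc25c, a phosphatase that activates Cdk1, had the smallest difference of this role, 0.48 log2 (SE 0.23, limma adjusted p = 0.701). KO 2A of Cdc25c lay just under the highest WT array, and the other KO-labelled arrays above it.

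All 4 mitotic kinases were above their WT means, with a median difference of 0.73 log2. Plk1 measured 9.54 and 9.45 log2 in the KO 1 arrays and 8.56 and 8.39 log2 in the KO 2 arrays, against 8.04, 8.14, 7.54 and 7.77 log2 in the WT arrays. Plk1, the polo kinase that acts from mitotic entry to cytokinesis, led them with 1.11 log2 (SE 0.32, limma adjusted p = 0.408). The groups did not overlap, although WT 2A and WT 2B were lower than WT 1A and WT 1B. Aurka, the kinase of centrosomes and spindle poles, differed by 0.71 log2 and Melk by 0.76, each with no overlap. The log2 level of Nek2 was 8.67 and 8.51 in KO 1 and 7.61 and 7.79 in KO 2, against 7.68, 7.55, 7.47 and 7.52 in the WT arrays. Nek2, a kinase that helps centrosomes part, was higher by 0.59 log2 (SE 0.28, limma adjusted p = 0.701). Both KO 1 arrays of Nek2 were well above WT, at a difference of 1.04 log2, whereas KO 2A was below WT 1A and the KO 2 difference was 0.14 log2.

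The chromosomal passenger complex corrects faulty attachments and then guides cytokinesis. Aurkb had log2 levels of 9.62 and 9.19 in KO 1, 8.64 and 8.56 in KO 2, against 8.27, 8.06, 8.05 and 8.01 in WT. Aurkb, the kinase of the complex, differed by 0.91 log2 (SE 0.30, limma adjusted p = 0.561). Birc5 measured 7.58 and 7.28 log2 in the KO 1 arrays and 6.58 and 6.73 log2 in the KO 2 arrays, against 6.29, 6.43, 6.18 and 6.42 log2 in the WT arrays. Birc5, the survivin subunit, differed by 0.71 log2 (SE 0.26, limma adjusted p = 0.661). Cdca8, the borealin subunit, differed by 0.84 log2, with 1.38 in KO 1 and 0.29 in KO 2. The 3 subunits spanned 0.71 to 0.91 log2, and in each the KO-labelled arrays lay above all WT arrays.

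Genes of the spindle checkpoint and of anaphase ran from 0.40 to 1.67 log2, with non-overlapping groups in 4 of 7. The log2 level of Bub1 was 8.76 and 8.47 in KO 1 and 6.94 and 6.58 in KO 2, against 5.91, 6.17, 6.04 and 5.95 in the WT arrays. Bub1, a checkpoint kinase, had the largest KO 1 difference of all members, 2.60 log2 or 6.05-fold. In KO 2 the Bub1 difference was 0.74 log2 and clear of the WT arrays, and over both preparations it was 1.67 log2 (SE 0.44, limma adjusted p = 0.329). Bub1b, the BubR1 checkpoint protein, differed by 1.15 log2 (SE 0.31, limma adjusted p = 0.384). Mad2l1 had log2 levels of 10.04 and 9.85 in KO 1, 8.75 and 8.38 in KO 2, against 7.80, 8.47, 8.03 and 7.62 in WT. Mad2l1, the Mad2 protein that restrains Cdc20, differed by 1.27 log2 (SE 0.43, limma adjusted p = 0.581). WT 1B of Mad2l1 lay above KO 2B, so the groups overlapped. Ttk, the Mps1 kinase, and Cdc20, the activator of the anaphase-promoting complex, differed by 0.73 and 0.65 log2 without overlap. Cdca3, which has a role in the destruction of Wee1 at mitotic entry, differed by 0.56 log2 with overlapping groups. Espl1 measured 7.93 and 7.92 log2 in the KO 1 arrays and 7.36 and 7.47 log2 in the KO 2 arrays, against 7.42, 7.20, 7.15 and 7.34 log2 in the WT arrays. KO 2A of Espl1 lay below WT 1A. Espl1, the separase that cuts cohesin, had the smallest difference above 0, 0.40 log2 (SE 0.23, limma adjusted p = 0.701).

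The groups were apart, with KO-labelled arrays higher, in all 5 centromere and kinetochore genes. Nuf2 had log2 levels of 9.60 and 9.44 in KO 1, 7.95 and 7.93 in KO 2, against 7.06, 7.47, 7.20 and 7.17 in WT. Nuf2, an outer kinetochore protein, led them at 1.51 log2 (SE 0.39, limma adjusted p = 0.329). Ndc80, its partner in the complex that grips microtubules, was also apart: the log2 level of Ndc80 was 8.62 and 8.56 in KO 1 and 7.65 and 7.74 in KO 2, against 7.41, 7.39, 7.31 and 7.40 in the WT arrays. The difference was 0.77 log2 (SE 0.27, limma adjusted p = 0.609), and the WT arrays were close together, with an SD of 0.045 log2. Cenpa measured 9.75 and 9.68 log2 in the KO 1 arrays and 9.04 and 9.02 log2 in the KO 2 arrays, against 8.30, 8.80, 8.63 and 8.44 log2 in the WT arrays. Cenpa, the histone variant of centromeres, differed by 0.83 log2 (SE 0.30, limma adjusted p = 0.644). Cenpe, a kinetochore kinesin, and Cenpf differed by 1.10 and 0.85 log2.

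Kinesin motors were higher throughout the KO-labelled arrays. The 7 members differed by 0.96 to 1.63 log2, and in all 7 the KO-labelled arrays lay above all WT arrays. Kif11 had log2 levels of 9.82 and 9.55 in KO 1, 8.07 and 8.25 in KO 2, against 7.16, 7.67, 7.29 and 7.06 in WT. Kif11, the motor that pushes spindle poles apart, differed most, by 1.63 log2 (SE 0.41, limma adjusted p = 0.295). The log2 level of Kif22 was 8.45 and 8.37 in KO 1 and 7.20 and 7.25 in KO 2, against 6.76, 6.86, 6.92 and 6.90 in the WT arrays. Kif22, a motor that binds chromosome arms, differed least, by 0.96 log2 (SE 0.30, limma adjusted p = 0.514). Kif4, a chromokinesin, differed by 1.35 log2 (SE 0.33, limma adjusted p = 0.255) and Kif23, a motor of the central spindle, by 1.15 log2. The WT mean of Kif4, 5.2 log2, was the lowest of all members. Kif15, which can take over part of the role of Kif11, had 1.80 log2 in KO 1 and 0.33 in KO 2. Kif20a, needed for cytokinesis, differed by 1.06 log2 and Kif2c, which takes microtubules apart at centromeres, by 0.97.

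Of the spindle microtubule proteins, Prc1 had the largest difference. Prc1 bundles the microtubules of the central spindle. Prc1 measured 8.80 and 8.68 log2 in the KO 1 arrays and 7.34 and 7.27 log2 in the KO 2 arrays, against 6.80, 6.66, 6.49 and 6.58 log2 in the WT arrays. Its difference was 1.39 log2 (SE 0.35, limma adjusted p = 0.295). Tpx2 had log2 levels of 8.87 and 8.88 in KO 1, 7.65 and 7.39 in KO 2, against 6.71, 6.92, 6.95 and 6.83 in WT. Tpx2, which activates Aurka on the spindle, differed by 1.34 log2 (SE 0.35, limma adjusted p = 0.32). The log2 level of Hmmr was 7.01 and 6.65 in KO 1 and 5.49 and 5.47 in KO 2, against 5.16, 5.41, 5.24 and 5.16 in the WT arrays. Hmmr, a microtubule protein also known as RHAMM, differed by 0.91 log2 (SE 0.33, limma adjusted p = 0.628). The KO 2 arrays of Hmmr were only just above WT 1B. Nusap1, which binds spindle microtubules, differed by 0.91 log2. In all 4 genes of this role the KO-labelled arrays stood above WT.

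Condensin, the ring complex that compacts chromosomes, held both a large difference and the single one below 0. Ncapg measured 9.28 and 9.12 log2 in the KO 1 arrays and 7.55 and 7.53 log2 in the KO 2 arrays, against 6.63, 7.07, 6.80 and 6.69 log2 in the WT arrays. Ncapg, a subunit of condensin I, differed by 1.57 log2 (SE 0.41, limma adjusted p = 0.32). Ncaph, the kleisin of condensin I, and Smc2, a core ATPase, differed by 1.16 and 1.21 log2, and none of these 3 had overlapping groups. Smc4 had log2 levels of 10.76 and 10.80 in KO 1, 10.84 and 10.70 in KO 2, against 10.82, 11.60, 11.24 and 11.18 in WT. Smc4, the ATPase that pairs with Smc2, went the other way at -0.44 log2 (SE 0.34, limma adjusted p = 0.701). The KO-labelled arrays of Smc4 were close together, with an SD of 0.06 log2, and 3 of 4 WT arrays were above them while WT 1A lay among them. The fold was 0.743 in KO 1 and 0.735 in KO 2, and the KO-labelled preparations differed less in Smc4 than in any other member. After quantile normalization Smc4 was at -0.65 log2 (adjusted p = 0.181).

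Both measured genes of cytokinesis were higher in the KO-labelled arrays. The log2 level of Ect2 was 9.17 and 9.05 in KO 1 and 7.71 and 7.64 in KO 2, against 7.41, 7.14, 7.19 and 7.17 in the WT arrays. Ect2, which activates RhoA at the cell equator, differed by 1.17 log2 (SE 0.36, limma adjusted p = 0.488). Anln had log2 levels of 7.72 and 7.18 in KO 1, 6.13 and 6.06 in KO 2, against 5.85, 5.95, 5.86 and 5.99 in WT. Anln, the anillin scaffold of the contractile ring, differed by 0.86 log2 (SE 0.35, limma adjusted p = 0.701). The groups of both genes were apart. Its KO 1 difference was 1.54 log2 and its KO 2 difference 0.19, and the KO 2 arrays were only just above the highest WT array.

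**Figure D5:**
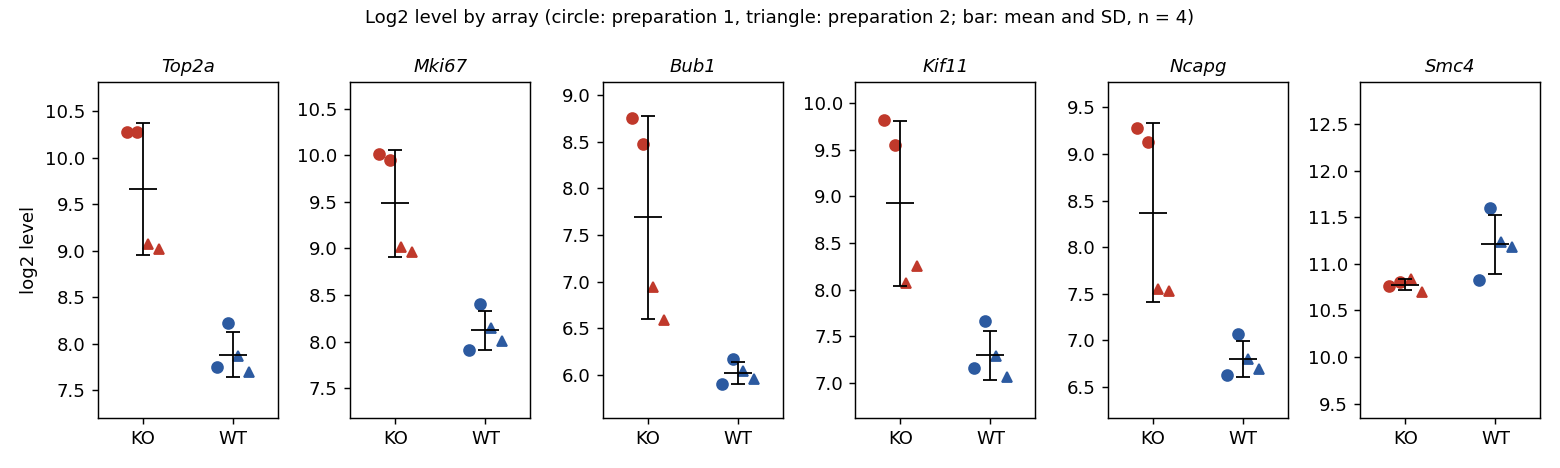
Log2 levels of 6 mitosis genes by array, with circles for preparation 1, triangles for preparation 2 and bars for the mean and SD of 4 arrays; each panel spans the same number of log2 units. In the first 5 panels the KO 1 circles stand above the KO 2 triangles, which stand above WT, and in the Smc4 panel the KO-labelled points lie together below 3 of the 4 WT points.

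The wider mitosis program, taken from a list of 71 further genes, had a smaller median difference. Of 68 measured, limma called 0 in either direction. Without adjustment, 36 were higher at a p under 0.05, against 5.65% of all genes, and 0 lower. In 34 the KO-labelled arrays lay above all WT arrays, against 6.67% of all genes. Their median difference was 0.69 log2, with 1.14 in KO 1 and 0.21 in KO 2, and 66 of 68 were above 0. After quantile normalization 2 were called higher, Racgap1 and Incenp, against 0.607% of all genes, and the median was 0.58 log2. The largest differences were those of Ncapg2, a condensin II subunit, at 1.40 log2 (SE 0.38, limma adjusted p = 0.384) and of Racgap1, a partner of Kif23 and Ect2 in cytokinesis, at 1.35 log2 (SE 0.30, adjusted p = 0.181). The lowest were those of Mad1l1, a checkpoint protein that recruits Mad2, at -0.13 log2 (SE 0.21, adjusted p = 0.749), whose KO-labelled arrays lay below all WT arrays, and of Pttg1, the separase inhibitor securin, at -0.00 log2 (SE 0.22, adjusted p = 0.993), above 0 after median centring.

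Genes of DNA replication and S phase differed nearly as much as the mitosis genes in KO 1. Of 34 measured genes from a list of 35, limma called 0. Without adjustment, 24 were higher at a p under 0.05, against 5.65% of all genes, and 0 lower. In 21 the groups did not overlap and KO-labelled arrays were on top, against 6.67% of all genes. Their median difference was 0.89 log2, with 1.45 in KO 1 and 0.33 in KO 2, and 0.72 after quantile normalization. Rrm2, a ribonucleotide reductase subunit, differed by 1.72 log2 (SE 0.43, limma adjusted p = 0.295) and Prim1, a primase subunit, by 1.39 log2 (SE 0.48, adjusted p = 0.597). Tk1, the S phase thymidine kinase, was at 0.22 log2 (SE 0.38, adjusted p = 0.763), or below 0 after quantile normalization, and Gins3, of the replicative helicase, at 0.30 log2 (SE 0.23, adjusted p = 0.701). Whether mitosis and S phase genes differ in the size of their shift was not tested.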

How the data were processed

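Affymetrix arrays measured total RNA of 8 samples, 100 ng each, per the labels' protocols. The authors deposited log2 values, 1 per probe set, summarised with RMA and Partek, per the submitters' processing notes, which list no versions or filters. RMA usually brings arrays towards 1 distribution, yet array SDs still differed. The part of this wider spread in the KO 1 differences was not tested. Precision is limited by the small number of arrays. Of 28768 probe sets, 21771 had 1 gene symbol in the platform annotation, which can be old, 1557 had several and 5440 none; this left 19937 genes, each at its set of highest mean, with no filter on dim sets. limma 3.58.1 (R 4.3.3, eBayes with a variance trend, two-sided) tested KO-labelled against WT arrays, with the preparation as a random block (duplicateCorrelation, correlation 0.617) and p-values adjusted by Benjamini-Hochberg over all genes. The fit was also run on simulated data with the same variance in both groups. The members' spread differs between the groups here, so that run does not show how the fit behaves on these data. SE is that of the fitted log2 difference, and folds are powers of it. Members, roles and lists were chosen with earlier results of these data known, so no list carries a test. Given array by array were, in each role, the members of highest mean, largest and smallest difference, and from the further lists the 2 largest and 2 smallest differences are named. Members named to complete a count of calls or overlaps, Incenp, and the 6 genes plotted were chosen after their values were seen. Alternatives were other blocks, scalings, filters, probe set rules and variance models, array weights, and leaving out arrays or preparations.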

Additional observations from a re-analysis of the deposited data

Results flagged for a closer look

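Each group of 4 arrays was examined for a single value far from the other 3, over 43 members and both groups, 86 checks in all. The threshold marks about 1 in 20 groups by chance where the 4 values are alike. In KO-labelled arrays, KO 1 lay above KO 2 in 42 members, so a single far value could hardly be marked there. The check marked 2, both in WT arrays, and this count cannot be set against chance. Bub1b was at 7.16 log2 in WT 1B, above the 3 other WT arrays, which lay at 7.01 to 7.02. Ect2 was at 7.41 log2 in WT 1A, against 7.14 to 7.19 in the others. Neither value reached the KO-labelled arrays of its gene.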

How the results depend on the processing

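The direction was the same for all members under all 21 alternatives. Under each, 42 were above 0 and Smc4 below it, or 40 and Smc4 where a filter at log2 6 left 41 members. In some alternatives the sign could not change. Other blocks or none, preparation means, the filter and the variance model left each difference as it was. The mean of probe sets changed Top2a alone. Of 901 recomputed member differences, 90 passed the threshold that none passes in the reported fit. Of these, 42 came from the fit without KO 2, which called 30.1% of all genes higher. A further 33 came from the replicate block given below, which called 620 of all 19937 genes higher. The count that changed sign was 0, in part fixed in advance. The number of members called higher was 0 as reported, 1 with no block (Top2a), 1 with preparation means (Kif4), 1 with array weights (Top2a) and 4 after quantile normalization. With the labelled number as a replicate block, shared by KO-labelled and WT arrays, it was 33; the numbers are not stated to pair samples, although KO 1 minus KO 2 and WT 1 minus WT 2 correlated at 0.416 over genes. Over all genes, 24 were called higher and 3 lower as reported, 92 and 21 with no block, 620 and 57 with the replicate block, 45 and 7 with preparation means, 61 and 5 with array weights and 121 and 36 after quantile normalization. Leaving out 1 array or preparation gave 0 to 42 calls. The single call from leaving out 1 array was Top2a without WT 1B (adjusted p = 0.0193), and without KO 2B its adjusted p was 0.0535. Without KO 1 the members' median was 0.48 log2 and without KO 2 1.58, against 0.97 with both, and it was 0.85 to 1.10 without any 1 array. Median centring moved it to 1.08, where all genes had 0.04. The mean of its probe sets lowered Top2a, and Mki67 then had the smallest adjusted p (0.263). Why the calls differ between alternatives was not tested.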
